A study of Mus musculus with 6 samples.

Results

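The SoxF transcription factors Sox7, Sox17 and Sox18 were followed through the cells of mouse dorsal skin. Their 3 genes were found by symbol among the 31053 genes of the count tables, with 1 row for each gene. Sox18 was the reason to follow them: it had been seen to be lower in the fibroblasts of treated skin in these same libraries, so the level of Sox18 in fibroblasts is described below and not tested. The tests of the 3 genes concern endothelium and keratinocytes, whose cells did not enter that choice. Other genes were also tested in fibroblasts with dermal papilla markers, which are among the cells of that choice. In the mouse genome build GRCm38 the protein-coding gene Sox17 (ENSMUSG00000025902) lies on the minus strand at chr1:4490931-4497354, where Gm37587, a processed transcript, overlaps it on the opposite strand. Sox18 (ENSMUSG00000046470) lies on the minus strand at chr2:181669836-181671640 and Sox7 (ENSMUSG00000063060) on the plus strand at chr14:63943673-63950732, and no other annotated gene overlaps either of them. The longest stretch that transcripts of a pair of these genes share exactly was 29 bases, between Sox17 and Sox18.

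SoxF proteins bind DNA through an HMG box and are best known from blood and lymphatic vessels, where they act beside Notch and VEGF signalling. Sox17 is known for its role in arteries, Sox18 for switching on the lymphatic programme through Prox1, and Sox7 for its overlap with both in vessel growth. Sox18 has a further place in skin: it is expressed in the dermal papilla, the cluster of mesenchymal cells at the base of the hair follicle that instructs hair growth, and mice of the ragged series, which carry Sox18 mutations, have sparse coats and vessel defects.

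Cells of 6 libraries in 3 groups of 2 were compared. All mice were female C57BL/6 mice of 8 to 10 weeks. Sham skin was untreated by its treatment label, although the model label of every library, Sham included, names the imiquimod model. In the IMQ group shaved back skin was given 62.5 mg of cream with 5% imiquimod daily for 4 days, and the mice were killed the day after the last dose. Imiquimod activates Toll-like receptor 7 and brings on psoriasis-like inflammation. The IMQ+SHP099 group had the same cream plus daily gavage, for 4 days, of 10 mg/kg SHP099, which blocks the phosphatase SHP2 at an allosteric site. By the paper's account each Sham library pooled the skin of 2 mice and each IMQ or IMQ+SHP099 library that of 3. Pool size thus differed between Sham and treated groups, mice cannot be told apart and every test rests on 2 libraries a group. Dissociated skin was loaded without a sort, and the level of a gene is its count of UMIs (tags that mark single captured molecules) in a class of cells over all UMIs of that class, scaled to 1000000 and written as CPM.

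Of 55201 deposited barcodes 50850 were kept, between 7382 and 10293 in a library, with between 53913865 and 188283327 UMIs in a library. Pairs of libraries shared 14 to 43 barcodes. Classes were set cell by cell from marker genes: 1081 to 6091 fibroblasts, 21 to 318 blood endothelial cells, 80 to 158 lymphatic endothelial cells and 445 to 6067 keratinocytes in a library. The makeup of the libraries differed within groups. Fibroblasts were 12.6% and 41.9% of the cells of Sham replicates 1 and 2, and 22.7% and 60.0% of those of IMQ+SHP099 replicates 1 and 2. Sham replicate 2 also stood apart by hair follicle genes. A list of 11 hair shaft and root sheath genes summed to 4018 CPM in its keratinocytes and to between 11.5 and 21.9 in the other 5 libraries, so several results that lean on Sham replicate 2 are given without it too. Those of the gene lists in papilla-marked fibroblasts and of Sox21 in keratinocytes are not singled out in this way.

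The 3 genes had different homes. Of the 14690 Sox18 UMIs in kept cells, 64% lay in fibroblasts, 16.4% in blood endothelium and 6.81% in lymphatic endothelium, and cells with markers of a pair of classes held a further 6.92%. Of the 1146 Sox17 UMIs, 77.3% lay in blood endothelium and 20.3% in cells with markers of a pair of classes. Keratinocytes held 83.4% of the 9566 Sox7 UMIs and blood endothelium 6.18%. These shares follow how many cells of a class were captured, and per UMI Sox7 was higher in blood endothelium than in keratinocytes, as given with the class comparisons. Fibroblasts held 37.1% and 78.1% of the Sox18 UMIs of Sham replicates 1 and 2, and 4.60% to 17.9% of those of a treated library.

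**Figure D1:**
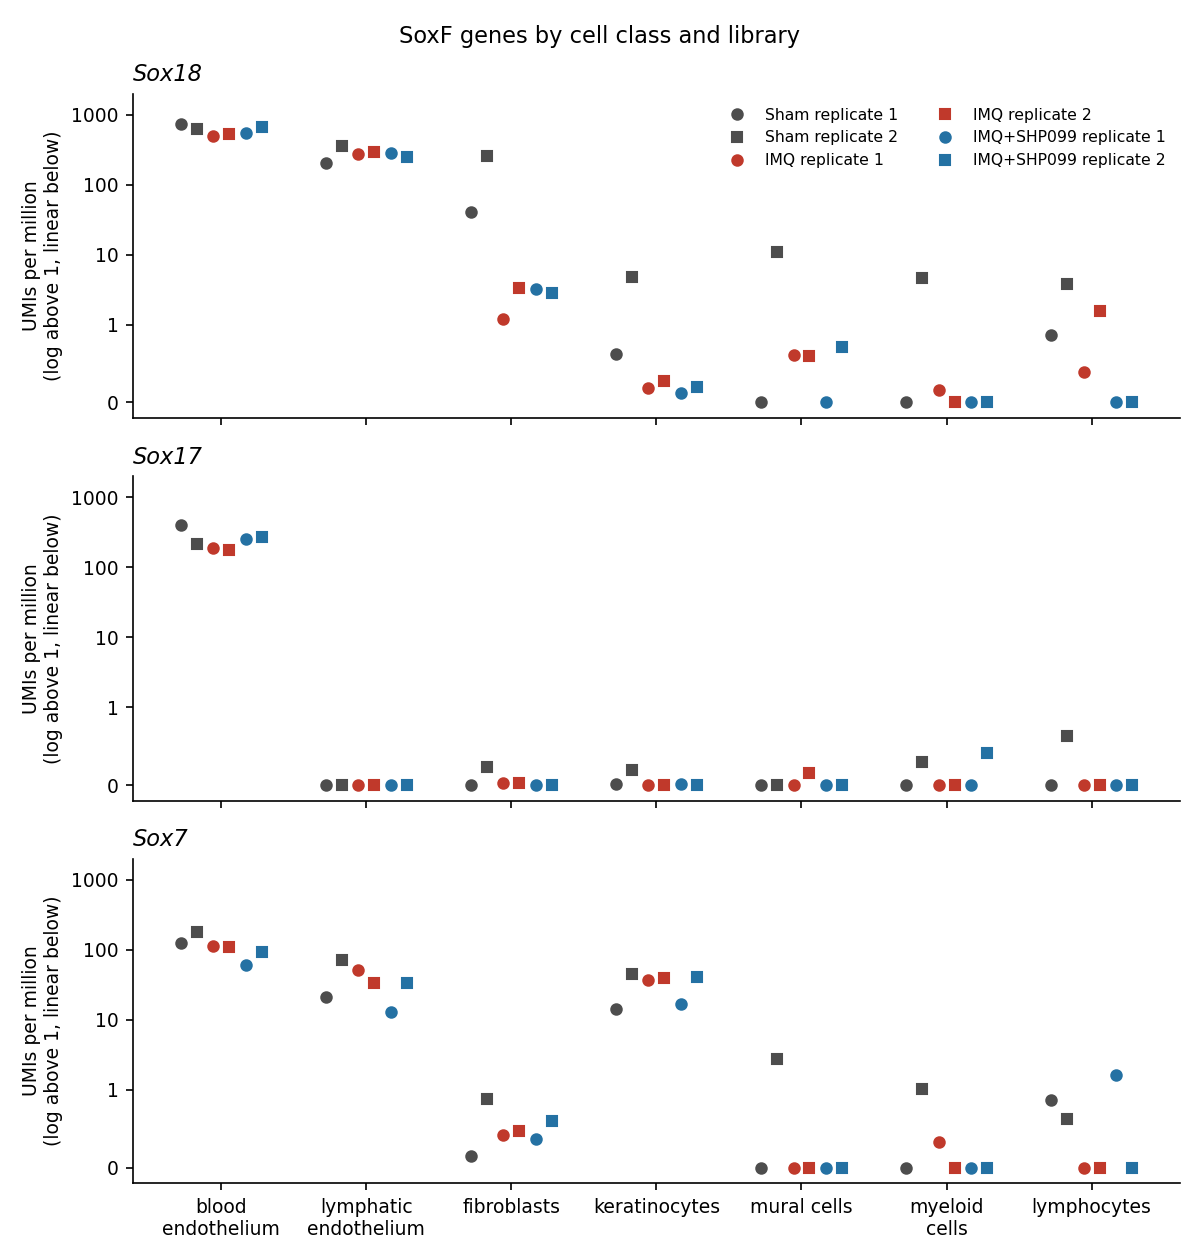
Levels of Sox18, Sox17 and Sox7 in 7 cell classes, in CPM (vertical axis, logarithmic above 1 and linear below), with 1 point per library. Sox18 in fibroblasts is at 40.5 and 256 for Sham and between 1.19 and 3.38 in the treated libraries, while its points in blood and lymphatic endothelium lie close together.

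In fibroblasts as a whole, Sox18 stood at 40.5 and 256 CPM in Sham replicates 1 and 2. It was at 1.19 and 3.38 in IMQ replicates 1 and 2 and at 3.23 and 2.81 in IMQ+SHP099 replicates 1 and 2. Both Sham libraries lay above all 4 treated libraries, and the Sham libraries differed from each other by more than the treated libraries did. The Sham mean of 148 ± 152 (SD, n = 2) was 64.8 times the IMQ mean of 2.29 ± 1.55 and 49.1 times the IMQ+SHP099 mean of 3.02 ± 0.291. On the log2 scale of the edgeR fit the difference IMQ minus Sham was -5.79 with a standard error (SE) of 0.85, and -4.27 without Sham replicate 2. IMQ+SHP099 minus IMQ was 0.45 with an SE of 0.76, and the libraries of these groups overlapped. Over all 14692 genes fitted in fibroblasts, 0.599% were called in IMQ against Sham at an adjusted p under 0.05, 0.129% in IMQ+SHP099 against Sham and 0% in IMQ+SHP099 against IMQ, and nothing is read from these shares for Sox18, whose difference in fibroblasts chose it.

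The difference lay mainly in cells with dermal papilla markers. A fibroblast was gated as dermal papilla when it held UMIs of at least 3 of 8 markers: Corin (a serine protease), Crabp1 (a retinoic acid-binding protein), Wif1, Notum and Dkk2 (extracellular inhibitors of Wnt signalling), Hhip (an inhibitor of hedgehog ligands), Alx4 (a homeobox factor) and Coch (an extracellular matrix protein). The gate took 59 and 804 cells in Sham replicates 1 and 2, 303 and 613 for IMQ, and 86 and 275 for IMQ+SHP099. In these cells Sox18 was at 462 and 713 CPM for Sham, at 1.21 and 14.0 for IMQ and at 35.6 and 23.7 for IMQ+SHP099. The 2 Sham libraries lay closer to each other than in the whole fibroblast pool, and the 4 treated libraries lay below both. The fitted difference IMQ minus Sham was -5.94 (SE 0.71), and -5.68 without Sham replicate 2. IMQ+SHP099 minus Sham was -4.16 (SE 0.68). IMQ+SHP099 minus IMQ was 1.78 (SE 0.70), with the IMQ libraries below those of IMQ+SHP099, and this value ranged from 1.10 without IMQ replicate 1 to 4.56 without IMQ replicate 2, which leaves IMQ replicate 1 with 3 Sox18 UMIs as the only IMQ library. It was 0.35 among gated cells without an endothelial UMI, where the libraries overlapped, at 1.46 and 20.8 for IMQ and 0 and 18.2 for IMQ+SHP099, and they overlapped among cells called papilla by clustering, at 6.47 and 35.0 against 37.7 and 31.7.

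A Sox18 UMI was found in 49.2% and 73.9% of the papilla-gated cells of the Sham libraries. The shares were 0.66% and 5.22% for IMQ and 9.30% and 4.00% for IMQ+SHP099. Papilla-gated cells of Sham replicate 2 were the deepest, with a median of 10263 UMIs against 5294 to 7756 elsewhere. After each cell was thinned to 2000 UMIs, over the 59 and 801 cells of Sham, 297 and 595 of IMQ and 80 and 260 of IMQ+SHP099 that reached this depth, the shares were 35.9% and 52.1% for Sham, 0.14% and 1.91% for IMQ and 3.89% and 1.43% for IMQ+SHP099. Both Sham libraries were above all treated ones at even depth too. Keratinocytes, read as a class that should lack Sox18, held a UMI of it in 0.23% and 2.95% of cells for Sham, 0.63% and 0.62% for IMQ and 0.19% and 0.23% for IMQ+SHP099, at median depths of 9779 to 34759 UMIs. The 0.66% of IMQ replicate 1 was at that background, and the other 5 libraries were above it.

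In untreated skin Sox18 was higher with each further papilla marker in a fibroblast. Among cells with none of the 8 markers it was at 5.28 and 47.4 CPM in Sham replicates 1 and 2, among cells with 3 markers at 160 and 340, and among cells with 5 or more at 1026 and 1298. At 4 markers and above the Sham libraries met, at 737 and 602 with 4 markers, although they lay far apart at 0 markers. In the treated libraries cells with none of the markers were at 0.44 to 0.82, and cells with 5 or more were at 0, 38.0, 138 and 53.9 in IMQ replicates 1 and 2 and IMQ+SHP099 replicates 1 and 2. These last values rest on 16, 47, 6 and 27 cells. More UMIs in a cell also bring more markers past detection, so the steps are a description of these cells and not a test.

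**Figure D2:**
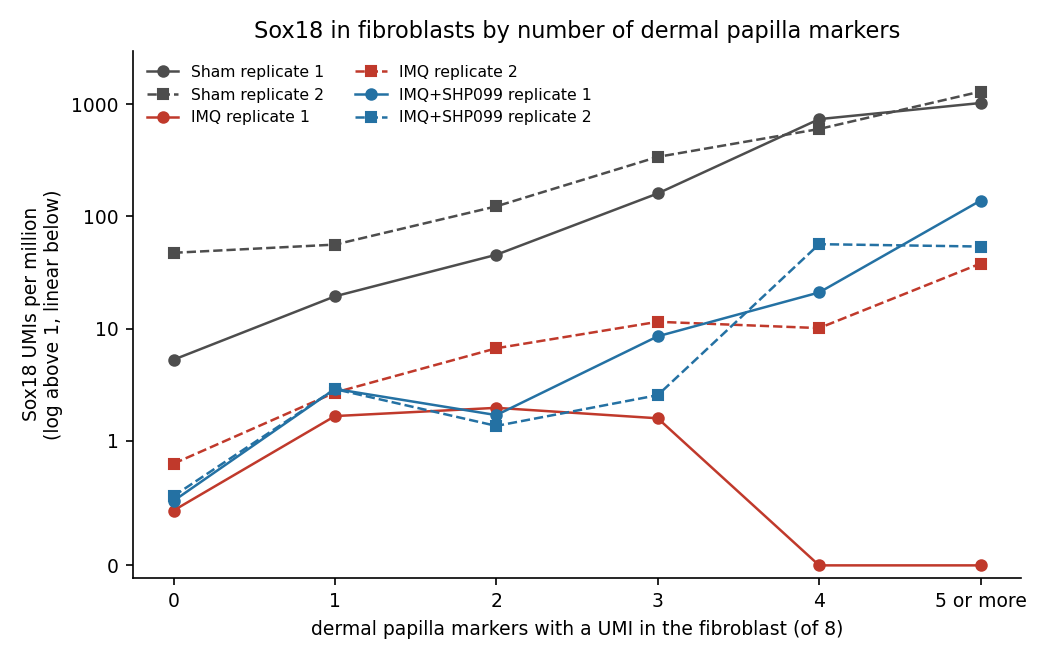
Sox18 in CPM (vertical axis, logarithmic above 1 and linear below) among fibroblasts grouped by how many of the 8 dermal papilla markers have a UMI in the cell (horizontal axis), with 1 line per library. Both Sham lines climb to 1026 and 1298 at 5 or more markers and lie above the 4 treated lines at every step.

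Other fibroblast subsets carried the remainder. In the dermal sheath, the mesenchymal coat of the follicle that adjoins the papilla, Sox18 was at 121 and 226 CPM for Sham, at 16.2 and 29.1 for IMQ and at 30.9 and 38.2 for IMQ+SHP099. Reticular fibroblasts of the deeper dermis were at 17.5 and 75.5 for Sham and at 0.28 to 1.49 in the treated ones. Papillary fibroblasts of the upper dermis were at 0 and 35.9 for Sham and at 0.37 to 2.18 in the treated ones. The fascia and adventitial subset was at 0.41 and 25.7 for Sham and at 0 to 1.26 in the treated libraries. Outside the papilla gate as a whole Sox18 stood at 10.3 and 67.1 for Sham and at 1.19 to 2.29 in the treated ones, and the fitted difference IMQ minus Sham was -4.32 (SE 0.74), or -2.72 without Sham replicate 2. Sham replicate 2 also held Sox18 in classes outside the stroma, at 4.75 CPM in keratinocytes and 4.61 in myeloid cells, and the part of RNA shed by other cells in its papillary, reticular and fascia levels was not tested.

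When the level in all fibroblasts was split into the amount that each subset contributes, the papilla gate held 81.5% of the difference between the Sham and IMQ means of 146 CPM. Reticular fibroblasts held 10.1%, the dermal sheath 4.38%, papillary fibroblasts 2.50% and the remaining subsets under 1% each. The papilla gate held 81.3% of the difference between the Sham and IMQ+SHP099 means. Over the 8 pairs of a Sham and a treated library the share ranged from 77.6% to 82.0%, so Sham replicate 1, with 59 papilla-gated cells, placed the difference where Sham replicate 2 did. What differed between the Sham libraries was how much of it came with subset makeup. In the 4 pairs with Sham replicate 1 the difference of level inside subsets came to 92.4% to 122% of the difference and the difference of makeup to -21.6% to 7.55%. In the 4 pairs with Sham replicate 2, where the papilla gate held 29.2% of fibroblast UMIs, the level inside subsets came to 66.8% to 73.4% and the makeup to 26.6% to 33.2%.

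**Figure D3:**
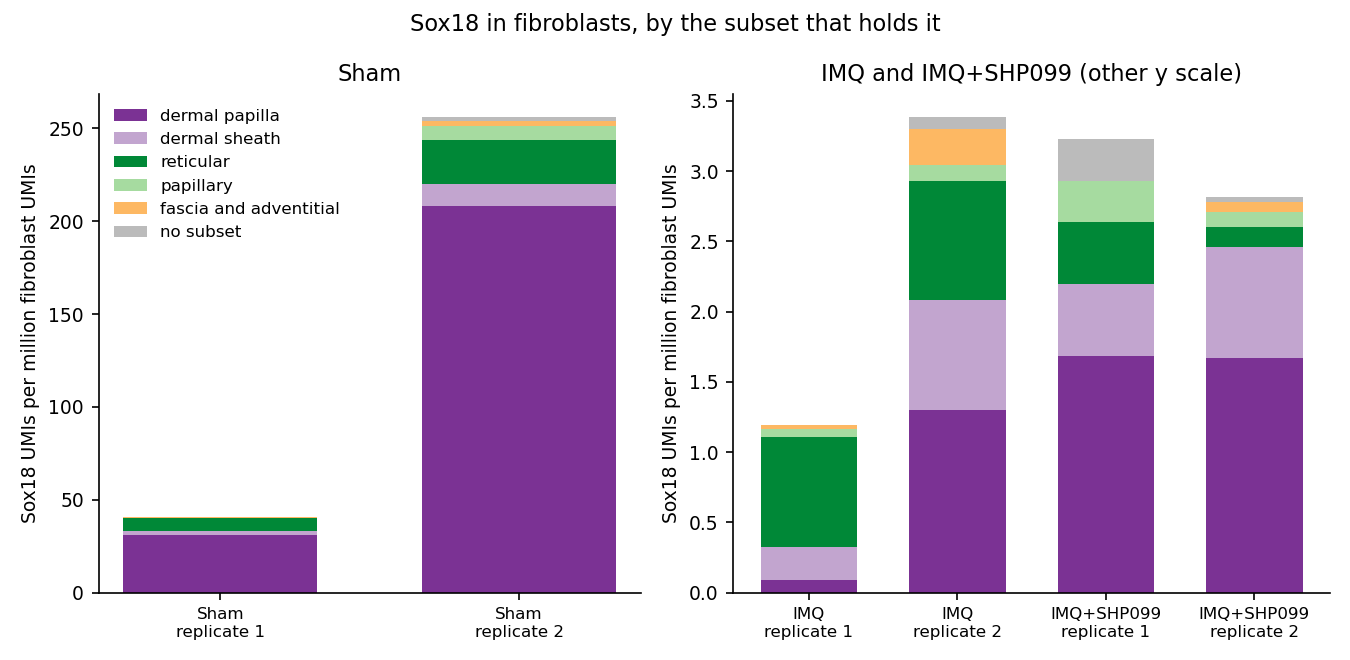
Sox18 in CPM of all fibroblast UMIs (vertical axis, linear from 0), with each bar a library and each segment the part that lies in a fibroblast subset; the left panel (Sham) reaches 256 and the right panel (IMQ and IMQ+SHP099) has another scale and reaches 3.38. The dermal papilla segment makes up most of both Sham bars, 76.3% in replicate 1 and 81.4% in replicate 2.

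The cells in the papilla gate were not of the same makeup in the 3 groups, and this bears on every value above. Coch was at 781 and 780 CPM in the gated cells of the Sham libraries and at 3958 to 5457 in the treated ones, and Dkk2 at 236 and 179 against 453 to 903. Corin went the other way, at 247 and 240 for Sham and at 4.85 to 12.1 in the treated ones, and so did Hhip, at 233 and 333 against 14.9 to 49.5, and Alx4, at 94.7 and 147 against 24.8 to 43.3. Crabp1 (617 to 1232), Wif1 (202 to 576) and Notum (18.2 to 111) overlapped between Sham and treated libraries. The gate in treated skin was therefore held more by Coch and Dkk2 and in untreated skin more by Corin and Hhip. Whether papilla cells lost Sox18 or whether fewer papilla cells of the Sox18-bearing kind were captured cannot be told apart from these counts.

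**Figure D4:**
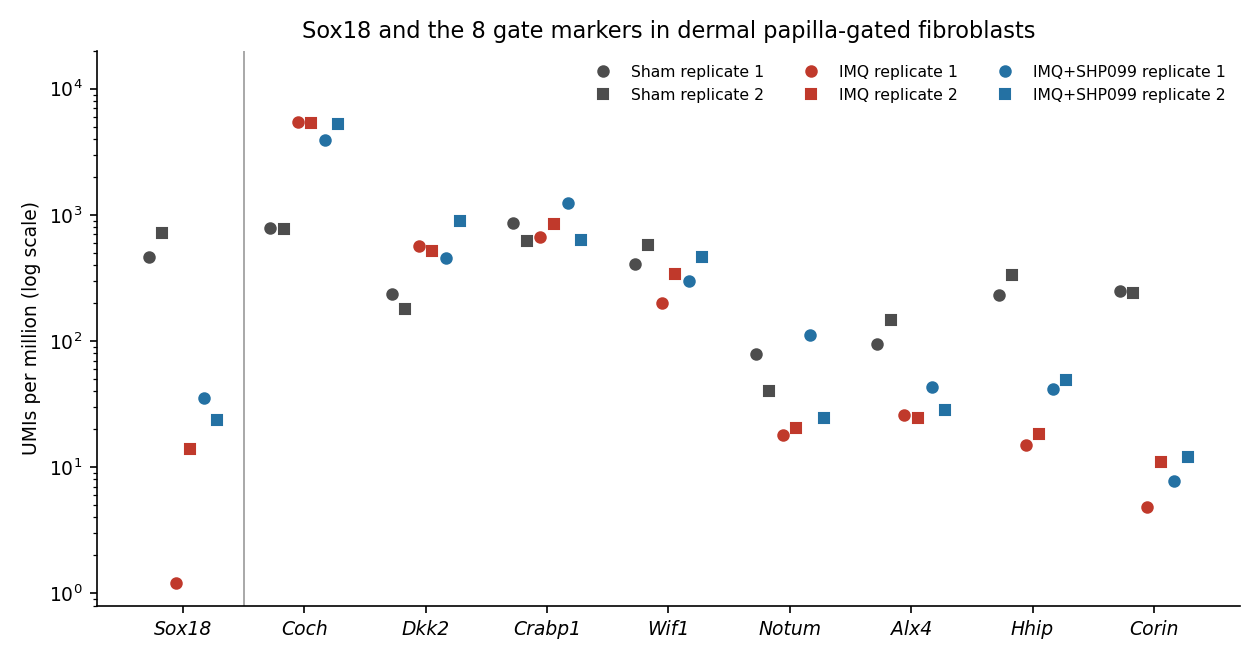
Levels of Sox18 (left of the line) and of the 8 markers that define the dermal papilla gate, in CPM of gated cells (vertical axis, logarithmic), with 1 point per library. Sox18, Hhip and Corin lie higher in both Sham libraries than in all 4 treated libraries, and Coch and Dkk2 lie lower.

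Gates that leave out those markers were therefore read too, as choices made after the values were seen. With Coch and Dkk2 dropped and at least 3 of the 6 remaining markers required, 30 and 528 cells of the Sham libraries held Sox18 at 892 and 1020 CPM. The same gate took 24 and 81 cells of the IMQ libraries, at 0 and 36.0, and 13 and 35 cells of the IMQ+SHP099 libraries, at 120 and 46.2. In fibroblasts with a Corin UMI the Sham libraries were at 941 and 1138 and the treated ones at 0, 27.6, 59.4 and 85.0, on 15, 51, 4 and 20 cells. Under both choices the treated libraries lay below both Sham libraries. Cells called papilla by clustering in place of gates were at 817 and 684 for Sham and at 6.47 to 37.7 in the treated ones, but they lay in different clusters by group. The cluster with most of the Sham cells held 67 and 827 of them and 1 to 19 cells of a treated library, and the other held 26 and 32 Sham cells and 245 to 761 of a treated library, so clustering is no comparison of like cells.

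Some cells with papilla markers lay outside the fibroblast gate. Among cells with too few markers for any class, Sox18 was at 401 CPM in Sham replicate 1 and at 1.70 to 27.5 in the other libraries. In Sham replicate 1, 14 of these 150 cells carried at least 3 papilla markers and held 157 of the 178 Sox18 UMIs of the class, at 2443 CPM. The 6 such cells of Sham replicate 2 were at 984, and the 21 to 94 such cells of a treated library were at 0 to 44.7. The pattern by papilla markers was thus seen in cells that the fibroblast sums do not hold. They come from the same libraries and were picked by the same markers, so they are no separate test.

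Endothelial markers were low in the papilla gate and did not follow Sox18 across the groups. The 9 endothelial markers summed to 148 and 150 CPM in the gated cells of Sham, below the 185 to 238 of the treated libraries, and to 7542 to 10772 in blood endothelium. Of these markers Pecam1 was at 0 to 4.10, Cdh5 at 0 to 0.90 and Emcn at 0 to 1.55 in gated cells. The other markers of the list held most of the sum there. Gated cells with no endothelial UMI at all held Sox18 at 463 and 969 for Sham, at 1.46 and 20.8 for IMQ and at 0 and 18.2 for IMQ+SHP099. The 0 of IMQ+SHP099 replicate 1 rests on 25 cells. Cycling went with the groups as well: Top2a and Mki67, genes of dividing cells, summed to 333 and 338 in gated cells of the Sham libraries and to 3.23 to 67.2 in treated ones, and their part in the Sox18 level was not tested. Keratinocyte markers (117 to 478) and mural markers (106 to 251) overlapped between the groups.

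Sham fibroblasts with a Sox18 UMI shared more than the gate markers. They numbered 47 of 1081 in Sham replicate 1 and 1035 of 3445 in Sham replicate 2. Among the 3415 genes compared, the 8 with the highest ratio of level in these cells over the level in fibroblasts without a Sox18 UMI, taking the lower of the 2 libraries, were Dbh (dopamine beta-hydroxylase), Sncb (beta-synuclein), Cd24a (a surface glycoprotein), Hey2 (a repressor downstream of Notch), Adamts18 (a secreted protease), Corin, Acan (the proteoglycan aggrecan) and Lef1 (a transcription factor of Wnt signalling). The lower ratio was 88.9 for Dbh and 15.0 for Lef1. These cells are chosen by a UMI of Sox18, which is likelier to be caught in a deep cell, so the ratios are a description and are not tested. The ranking used Sham cells alone, so lower levels of these genes in treated cells may follow from that choice and are no separate result. In the papilla gate Dbh was at 67.0 and 66.0 for Sham and at 0 to 6.19 in the treated ones, and Acan at 150 and 207 against 0.81 to 11.8. Lef1 was an exception among the 8: it was at 87.8 and 129 for Sham, at 34.3 and 41.6 for IMQ and at 114 and 95.5 for IMQ+SHP099, so that the IMQ+SHP099 libraries overlapped the Sham range.

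Genes known from the papilla but not used in the gate were tested between the groups within it. Of 20 such genes, all tested, 13 fell and 1 rose in IMQ against Sham by edgeR's quasi-likelihood test with Benjamini-Hochberg adjustment. Over all 11218 genes tested in the gate 9.56% were called, 5.36% lower and 4.21% higher, and the median log2 difference was -2.35 for the list and -0.01 for all genes. Among those that fell were Sox2, a further Sox factor of the papilla (log2 difference -3.67, SE 0.53, adjusted p = 0.00115), Bmp6, a growth factor (-3.46, SE 0.36, adjusted p = 0.000179), Rspo2 and Rspo3, which strengthen Wnt signals (-3.28 and -2.74), and Ptch1, the hedgehog receptor (-2.75). Sox2 itself was at 43.9 and 35.5 CPM for Sham and at 0.51 to 7.74 in the treated ones, below both Sham values. Igfbp3, which binds insulin-like growth factors, was the gene that rose (1.92, SE 0.41, adjusted p = 0.0107). In IMQ+SHP099 against Sham 8 of the list fell and 1 rose, where 6.02% of all genes were called, 2.69% lower and 3.33% higher. With cells chosen by clustering, 7 genes of the list were called in IMQ against Sham, where that fit called 588 of all 11080 genes. None of the 20 was called between IMQ+SHP099 and IMQ, where 3 had an unadjusted p under 0.05, DESeq2 called 0 and 0% of the 11218 genes were called. Since the gated cells differ in makeup, these changes cannot be told apart from a change in which cells the gate took. Some genes also entered the test through their Sham level, among them Sox2 and Bmp6, the latter at 1.55 to 4.04 CPM in treated libraries. The count of falls is therefore no separate support for the fall of Sox18.

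Genes that work with SoxF factors in vessels were read in the papilla gate as well, 26 of 39 being tested. In IMQ against Sham 7 fell and 1 rose, where 9.56% of all genes were called, 5.36% lower and 4.21% higher, and the median was -0.29 against -0.01 over all genes. In IMQ+SHP099 against Sham 6 fell and 1 rose, where 6.02% of all genes were called, 2.69% lower and 3.33% higher. Hey2 fell by 4.56 (SE 0.38, adjusted p = 4.38e-05) and Hey1, also downstream of Notch, fell by 2.35 on the log2 scale. Hey2 was among the genes ranked above from Sham cells with a Sox18 UMI, so its fall is no separate result. The Notch ligand Jag1 fell by 2.04 and the receptor Notch1 fell by 1.92. Kdr, the main VEGF receptor of endothelium, was at 16.2 and 25.0 CPM for Sham and at 0 to 1.76 in the treated ones, and it fell by 3.52 (SE 0.46, adjusted p = 0.000689). Its Sham level alone brought Kdr past the count filter. Vegfd, a ligand of lymphatic growth, rose from 2.31 and 6.49 to between 30.3 and 37.6 in the treated libraries, a log2 difference of 2.83 in IMQ (SE 0.33, adjusted p = 0.000335). These changes, too, cannot be told apart from a change in which cells the gate took. None of the 26 was called between IMQ+SHP099 and IMQ, with 1 at an unadjusted p under 0.05 and 0 called by DESeq2. Of the 7 other Sox genes tested in the gate, Sox2 and Sox11 fell in IMQ against Sham, beside the same 5.36% of all genes (Sox11 -2.44, SE 0.36, adjusted p = 0.00151), while Sox4 stood at 99.4 and 239 for Sham and at 107 to 247 in the treated ones. Sox7 and Sox17 were near 0 in gated cells, Sox7 at 0 to 2.31 and Sox17 at 0 to 0.18.

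Blood endothelium held Sox18 in every library. It stood at 742 and 612 CPM in Sham replicates 1 and 2, at 501 and 525 in IMQ replicates 1 and 2 and at 539 and 657 in IMQ+SHP099 replicates 1 and 2. The Sham libraries lay above those of IMQ, by an amount that the test did not call (log2 difference -0.26, SE 0.37, adjusted p = 0.733). Sox17 was at 395 and 215 for Sham, at 189 and 179 for IMQ and at 256 and 269 for IMQ+SHP099. The Sox17 difference IMQ minus Sham was -0.55 (SE 0.42, adjusted p = 0.514), and it rested on Sham replicate 1, without which it was 0.045. Sox7 was lower than the other members, at 125 and 178 for Sham, 115 and 109 for IMQ and 60.7 and 92.6 for IMQ+SHP099, the lowest of the 3 groups. Its difference IMQ+SHP099 minus Sham was -0.86 (SE 0.40, adjusted p = 0.482).

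None of the 3 genes was called in blood endothelium in any of the 3 contrasts by edgeR's quasi-likelihood test, none had an unadjusted p under 0.05, and DESeq2 called none. Over all 7435 genes tested 0.0403% were called in each contrast, so this is a class in which few genes of any kind passed. Sham replicate 1 and IMQ+SHP099 replicate 1 gave 21 cells each. For Sox18 the 95% interval of the log2 difference ran from -1.07 to 0.55 in IMQ minus Sham and from -0.87 to 0.77 in IMQ+SHP099 minus Sham. These bounds are not a limit of detection. In simulated counts of this class 52.5% of genes changed 4-fold were recovered.

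**Figure D5:**
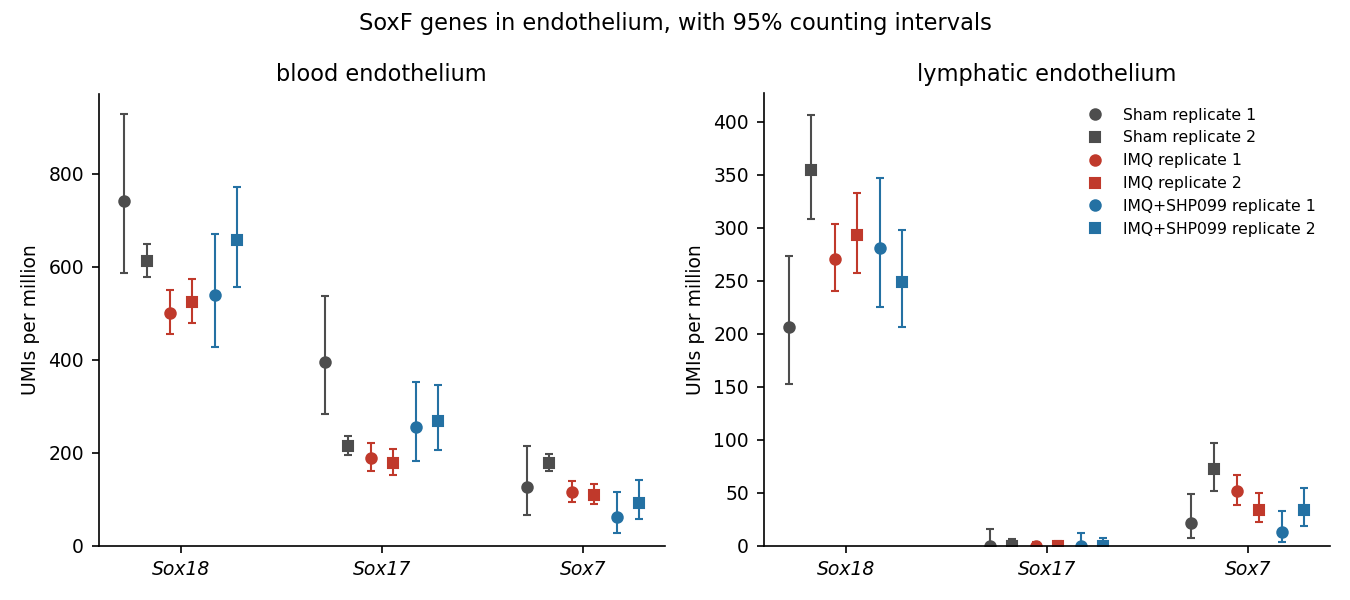
Levels of the 3 genes in blood (left) and lymphatic (right) endothelium, in CPM (vertical axes, linear from 0), with 1 point per library and bars for exact 95% Poisson intervals, which cover counting error only. Sox18 in blood endothelium runs from 501 to 742 across the 6 libraries and Sox17 in lymphatic endothelium is 0 in every library.

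In lymphatic endothelium Sox18 was at 206 and 355 CPM for Sham, at 271 and 293 for IMQ and at 281 and 249 for IMQ+SHP099. The Sham libraries enclosed all treated ones, and the difference IMQ minus Sham was 0.00 (SE 0.26, adjusted p = 0.997), with a 95% interval from -0.54 to 0.55. Sox7 was at 21.1 and 71.9 for Sham, at 51.2 and 34.1 for IMQ and at 12.9 and 33.2 for IMQ+SHP099, on 4 to 56 UMIs a library. Its difference IMQ+SHP099 minus Sham was -1.04 (SE 0.49, adjusted p = 0.393), with an unadjusted p of 0.0464, and it was 0.18 without Sham replicate 2. No Sox17 UMI was found in any of the 672 lymphatic cells, and a count of 0 leaves room for up to 2.74 to 12.6 CPM in a library. Of the 2 genes tested neither was called in any contrast, where 1.53%, 0.014% and 0.927% of the 7121 genes were called in IMQ minus Sham, IMQ+SHP099 minus IMQ and IMQ+SHP099 minus Sham. DESeq2 called neither. Sox4, the only other Sox gene tested there, fell in IMQ against Sham by edgeR (-1.48, SE 0.27, adjusted p = 0.00255) but was not called by DESeq2, and it fell in IMQ+SHP099 against Sham by both tools (edgeR -2.07, SE 0.33, adjusted p = 0.00125).

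Keratinocytes were the main place of Sox7 by number of UMIs. Its level there was 14.4 and 44.7 CPM for Sham, 37.0 and 39.6 for IMQ and 16.8 and 40.5 for IMQ+SHP099. The replicate 1 libraries of Sham and IMQ+SHP099 were low, and these are the libraries with 6067 and 5379 keratinocytes, against 445 to 1794 elsewhere. The differences of 0.77 in IMQ minus Sham (SE 0.42, adjusted p = 0.258) and 0.39 in IMQ+SHP099 minus Sham (SE 0.42, adjusted p = 0.544) were not called. With the replicate number as a block, IMQ minus Sham was 0.90 and past the threshold (adjusted p = 0.0389). Cells in which Krt1 and Krt10, keratins of the suprabasal layers, summed to at least as many UMIs as the basal keratins held more Sox7 than the other keratinocytes in all 6 libraries, at 19.6, 60.6, 58.6, 54.1, 39.5 and 62.4 against 12.1, 36.2, 33.1, 38.1, 15.3 and 36.9, in the order Sham, IMQ and IMQ+SHP099 replicates 1 and 2. This split was chosen after the values were seen and is not tested. A Sox7 UMI was seen in 13.4% to 57.4% of keratinocytes and, at 2000 UMIs a cell, in 2.88% to 8.28% of the 415 to 5837 cells of a library that reached this depth.

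Sox18 in keratinocytes was at 0.63 and 4.75 CPM for Sham, at 0.18 and 0.28 for IMQ and at 0.12 and 0.20 for IMQ+SHP099. It fell by 3.62 on the log2 scale in IMQ+SHP099 against Sham (SE 0.94, adjusted p = 0.0396), where 13.4% of the 14199 genes tested were called and 7.16% were lower, and the call was lost without Sham replicate 2 (-2.02), where it had an adjusted p of 0.119, and without either IMQ+SHP099 library. IMQ minus Sham was -3.08 (SE 0.87, adjusted p = 0.0546), against 12.5% of genes called and 7.42% lower, and it was past the threshold with DESeq2 (-3.03, adjusted p = 0.0118), no filter on low counts (-3.08), a mitochondrial limit of 5% (-3.37) and a replicate block (-2.70). None was called in IMQ+SHP099 minus IMQ, where 0% of genes were. These levels were below 1% of those in blood endothelium and, as in fibroblasts, Sham replicate 2 was the highest library. The part of RNA shed by other cells in them was not tested. They rest on 51 and 145 UMIs for Sham, 8 and 7 for IMQ and 17 and 2 for IMQ+SHP099. Sox18 entered this test through its Sham level, so its calls here are no separate support for the fall in fibroblasts. Among the other Sox genes, 2 of 10 tested in keratinocytes fell in IMQ, Sox6 (-3.85, SE 0.37, adjusted p = 0.000958) and Sox21 (-1.48, SE 0.38, adjusted p = 0.0403).

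The remaining classes held little of the 3 genes. Mural cells, the muscle-like coat of vessels, had Sox18 at 10.9 CPM in Sham replicate 2 and at 0 to 0.72 elsewhere, and all 3 genes lay under the count filter there. Sox18 in myeloid cells was at 4.61 in Sham replicate 2 and at 0 to 0.17 elsewhere, and in lymphocytes at 0 to 3.77. Schwann cells had Sox18 at 50.7 in Sham replicate 2, 10.9 in IMQ replicate 1 and 13.4 in IMQ+SHP099 replicate 2, and at 0 in the other 3 libraries. In all of these classes Sham replicate 2 was the highest library. In fibroblasts Sox7 was at 0.15 to 0.88 and Sox17 at 0 to 0.23, at or below 1 CPM in each library.

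Classes were compared within libraries as differences of log2(CPM + 1). Blood endothelium held more of all 3 genes than lymphatic endothelium in 6 of 6 libraries, with mean differences of 1.70 ± 0.53 (SD, n = 6) for Sox7, 7.92 ± 0.42 for Sox17 and 1.11 ± 0.42 for Sox18. An exact two-sided sign-flip permutation test over the 6 libraries gave p = 0.03125 for each, the smallest it can give, and an adjusted p of 0.0402 over 9 tests. Since Sox17 was at 0 in lymphatic endothelium, its fold there is a bound: against a floor of 3 UMIs in each library it was at least 26.4-fold to 68.8-fold higher in blood endothelium. With cells classed by clustering the Sox7 difference between blood and lymphatic endothelium was 0.98 and no longer called (exact p = 0.0625, adjusted p = 0.0703). The same p and adjusted p as with gates held for all 3 genes in blood endothelium against keratinocytes, where the exact test saw differences of 1.84 for Sox7, 7.87 for Sox17 and 8.50 for Sox18, and for Sox18 in lymphatic endothelium against keratinocytes (7.39). Sox7 did not differ beyond its spread between lymphatic endothelium and keratinocytes (0.14 ± 0.46, higher in 3 of 6 libraries, exact p = 0.5), nor did Sox17, which was near 0 in both (exact p = 0.25). The order of classes from high to low was therefore blood endothelium, lymphatic endothelium, keratinocytes for Sox18, and blood endothelium ahead of the other two for Sox17 and, with gated classes, for Sox7.

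Within blood endothelium the levels of the 3 genes were read by vessel type, as named from arterial, capillary and venous markers, and differences between types were not tested. Sox17 was at 370 to 552 CPM in arterial cells, at 63.8 to 622 in capillary cells and at 0 to 115 in venous cells across the libraries. The capillary value of 622 comes from 1 cell of Sham replicate 1, and the other libraries were at 63.8 to 194. In 4 of the libraries at least 4 cells of each type were found, Sham replicate 2, both IMQ libraries and IMQ+SHP099 replicate 2, and in each of these Sox17 was highest in arterial cells. Sox18 was also highest in arterial cells in those 4 libraries, at 786 to 978 against 255 to 695 in capillary and 295 to 397 in venous cells. Sox7 had the other order there: it was lowest in arterial cells, at 59.5 to 100 against 89.5 to 191 in capillary and 96.0 to 165 in venous cells, except in IMQ replicate 2, where arterial and capillary cells were at 89.9 and 89.5. Arterial cells were 18 of 21 in Sham replicate 1 and 27 of 318 in Sham replicate 2, so the higher Sox17 of Sham replicate 1 in the whole class went with a larger arterial share, and its part in the difference between groups was not tested beyond these levels: arterial Sox17 was at 414 and 552 for Sham and at 551 and 442 for IMQ.

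The genes were often found in the same cell. Of 501 blood endothelial cells 164 (32.7%) held UMIs of all 3 genes and 48 (9.58%) held none. Sox18 occurred with Sox17 in 281 cells and with Sox7 in 224. Among 672 lymphatic endothelial cells Sox18 occurred with Sox7 in 71, and 247 (36.8%) held none of the 3. Cells of the IMQ libraries had all 3 genes more often, in 49.1% and 56.6% of cells, but their median depth of 14963 and 14414 UMIs was above the 3415 to 6632 of the other libraries, and more UMIs alone raise such a share. The share of blood endothelial cells with a Sox18 UMI was 66.7% to 88.7% as measured and 59.2% to 70.2% at 2000 UMIs a cell, over the 16 to 251 cells of a library that reached this depth.

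No gene known to act with SoxF factors was called in endothelium. Of the 39 genes of the list, which takes in VEGF ligands and receptors, Notch genes and endothelial targets, 37 were tested in blood and 30 in lymphatic endothelium, and edgeR called 0 in each of the 3 contrasts. In the order IMQ minus Sham, IMQ+SHP099 minus IMQ and IMQ+SHP099 minus Sham, 1, 2 and 3 genes of the list had an unadjusted p under 0.05 in blood endothelium and 4, 1 and 5 in lymphatic endothelium, and DESeq2 called 0. Over all genes tested edgeR called 0.0403% in each contrast in blood endothelium. In lymphatic endothelium it called 1.53%, 0.014% and 0.927% in the same order, so a count of 0 is not read as a result about the list. The medians in IMQ minus Sham were -0.48 in blood endothelium against -0.03 over all genes and -0.14 in lymphatic endothelium against -0.03. Without Sham replicate 1, whose blood endothelium has 21 cells, 5 genes of the list were called in IMQ minus Sham in blood endothelium, where that fit called 535 of all 9445 genes, and 2 in lymphatic endothelium, where it called 204 of 8053. The most abundant members in blood endothelium were Egfl7, a secreted vessel factor, at 1233 to 1800 CPM, Cldn5, a tight junction protein, at 483 to 2157, Cdh5, the cadherin of endothelial junctions, at 835.7 to 1539, and Klf2, a factor induced by blood flow, at 728 to 1523. Egfl7, Cldn5 and Cdh5 were also among the markers that chose endothelial cells. Tie1, Flt1 and Prox1, also of the list, were markers of endothelial, blood endothelial and lymphatic endothelial cells. In lymphatic endothelium Flt4, the receptor for lymphatic growth signals, stood at 868 to 1242, with the Sham libraries at both ends of that range.

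The genes most like each member were sought over 47 sums of 8 classes and 6 libraries, by Pearson correlation of log2 levels among 12038 genes, as a description in which sums of 1 library share its depth and base makeup. Sox7 was closest to Mall, a membrane protein (r = 0.957), Fzd6, a Wnt receptor, Acer2, Eva1a and Cmtm8. Sox17 was closest to AU021092 (r = 0.985), Mecom, Ptprr, Cytl1 and Gm11730. Closest to Sox18 were Stmn2 (r = 0.945), itself an arterial marker here, Kdr (r = 0.935), Podxl, Bcl6b and Sncaip. Between the members r was 0.615 for Sox17 and Sox7, 0.621 for Sox17 and Sox18 and 0.681 for Sox18 and Sox7.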

How the data were processed

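The files deposited by the authors hold unscaled UMI counts of each gene in each barcode, made with Cell Ranger 3.1.0 against GRCm38. Genes were matched by symbol, and coordinates came from GENCODE vM21 by identifier. Barcodes under 100000 UMIs, 6500 genes and 10% mitochondrial UMIs were kept. A cell took 1 of 11 classes at a relative marker score of at least 0.15, with at least 3 of the class's markers and the next class at no more than 0.5 of the best. The limit of 0.15 was lowered from 0.25 after papilla cells with low collagen were seen to fall out. Scrublet scores over 0.25 marked 1.41% to 2.24% of cells, which were left in. UMIs were summed per library and class and fitted over all 6 libraries with edgeR 4.0.16 (R 4.3.3) by the quasi-likelihood test, with TMM, filterByExpr and Benjamini-Hochberg adjustment over all genes tested. The procedure was run on simulated counts with 200 genes changed 4-fold in IMQ minus Sham. It recovered 52.5% of them in blood endothelium, 57% in keratinocytes and 65% in fibroblasts. In lymphatic endothelium it recovered 87% and in the papilla gate 88.5%. Genes not changed were called 14, 11, 10, 16 and 18 times in these classes, in the order given. Depth, levels and thinning used Python 3.11.15, clustering scanpy 1.11.5. Nothing says that libraries of a group came from separate experiments, so p-values measure the spread between these libraries. With 2 libraries against 2, an exact permutation test of a single value cannot go below 0.333, and none is given. Intervals and floors cover counting error only. The members, marker lists and gene lists were chosen with earlier results of these data known. Named genes were the members and, in each list, those called with the largest change, or the most abundant where none was called. A gene that this rule would name is not reported here.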

Additional observations from a re-analysis of the deposited data

How the results depend on the processing

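The direction of the Sox18 difference between Sham and treated fibroblasts was the same under every alternative run, and its size was not. Leaving out 1 library at a time gave log2 differences IMQ minus Sham of -6.69 to -4.27 in all fibroblasts, -8.70 to -5.24 in the papilla gate and -5.00 to -2.72 in other fibroblasts, and IMQ+SHP099 minus Sham of -6.04 to -3.82 in all and -5.29 to -2.97 in other fibroblasts. In the papilla gate IMQ+SHP099 minus IMQ ranged from 1.10 to 4.56. Without cells that held an endothelial UMI it was 0.35, IMQ+SHP099 minus Sham was -5.48 and the log2 ratio of the Sham to the IMQ+SHP099 mean was 6.30. The share of the Sham minus IMQ and Sham minus IMQ+SHP099 differences held by the papilla gate was 89.1% and 88.9% with Leiden clusters, 77.0% and 76.7% with a stricter gate, 86.8% and 86.6% without endothelial UMIs, and 79.1% to 81.9% and 78.0% to 81.7% with 1 library left out. The cause of these shifts was not tested.

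In endothelium no member was called under any alternative, and several differences changed sign, not all of them near 0. In blood endothelium Sox17 in IMQ+SHP099 minus Sham was 0.014 with Leiden clusters and 0.020 with the stricter gate, and Sox18 was 0.011 with the stricter gate. In lymphatic endothelium Sox18 in IMQ minus Sham was -0.066 with Leiden clusters, -0.023 with the stricter gate and -0.017 without doublets. Sox7 there in IMQ+SHP099 minus IMQ was 0.47 with Leiden clusters, against -0.76 (SE 0.46) in the main fit. With 1 library left out, Sox17 in blood endothelium ranged from -1.06 to 0.045 in IMQ minus Sham and from -0.57 to 0.50 in IMQ+SHP099 minus Sham, and Sox18 from -0.49 to 0.013 and from -0.29 to 0.18. In lymphatic endothelium Sox18 ranged from -0.21 to 0.37 in IMQ minus Sham, -0.16 to 0.034 in IMQ+SHP099 minus IMQ and -0.27 to 0.30 in IMQ+SHP099 minus Sham, and Sox7 from -0.61 to 0.96 in IMQ minus Sham and from -1.94 to 0.18 in IMQ+SHP099 minus Sham. In keratinocytes Sox18 in IMQ minus Sham was past the threshold with DESeq2 (-3.03), no filter on low counts (-3.08), a mitochondrial limit of 5% (-3.37) and the replicate block (-2.70). It ranged from -3.82 to -1.42 with 1 library left out, and IMQ+SHP099 minus Sham ranged from -4.42 to -2.02, with the call lost without Sham replicate 2, IMQ+SHP099 replicate 1 or IMQ+SHP099 replicate 2. Sox7 in keratinocytes ranged from -0.88 to 0.017 in IMQ+SHP099 minus IMQ and from -0.10 to 1.05 in IMQ+SHP099 minus Sham.

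Between classes, 5 libraries cannot pass the sign-flip test, so leaving 1 out bears only on the size: blood minus lymphatic endothelium was 1.54 to 1.81 for Sox7, 7.78 to 8.01 for Sox17 and 0.97 to 1.18 for Sox18, blood endothelium minus keratinocytes 1.60 to 1.97, 7.72 to 7.95 and 8.38 to 8.85, and lymphatic endothelium minus keratinocytes 7.27 to 7.67 for Sox18. With Leiden clusters Sox7 in blood minus lymphatic endothelium was 0.98 and no longer called, and Sox17 in lymphatic endothelium minus keratinocytes was 0.13.

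Counts of called genes moved more, given here in the order IMQ minus Sham, IMQ+SHP099 minus IMQ and IMQ+SHP099 minus Sham. With DESeq2 they were 681 and 2 in the first 2 contrasts of the papilla gate, 32, 12 and 14 in blood endothelium, 61, 0 and 34 in lymphatic endothelium and 2761, 14 and 3077 in keratinocytes. With no filter they were 1746, 42 and 1279, then 391, 51 and 177, then 239, 9 and 151, and 3034, 130 and 3374. With 1 library left out they were 226 to 1323, 0 to 26 and 115 to 737 in the papilla gate, 7 to 535, 0 to 27 and 1 to 313 in blood endothelium, 69 to 204, 0 to 8 and 19 to 176 in lymphatic endothelium, and 552 to 2000, 0 to 2 and 295 to 1913 in keratinocytes. Fits of only the 2 groups compared gave 0, 15 and 1 in blood endothelium and 0 and 43 in the last 2 contrasts of lymphatic endothelium. The 5% mitochondrial limit gave 17, 6 and 5 in blood endothelium and 0 in IMQ+SHP099 minus IMQ in lymphatic endothelium. Leiden clusters gave 588 in IMQ minus Sham in papilla cells, 13 and 0 in blood endothelium and 28, 0 and 20 in lymphatic endothelium, and the stricter gate gave 1 in IMQ+SHP099 minus IMQ in the papilla gate and 1 in IMQ+SHP099 minus Sham in blood endothelium. The papilla gate without endothelial UMIs gave 618, 2 and 421. Of the lists, with no filter 1 SoxF partner was called in IMQ minus Sham in blood and in lymphatic endothelium and 1 in IMQ+SHP099 minus IMQ in lymphatic endothelium, and 2 papilla genes in IMQ+SHP099 minus IMQ. Papilla genes called in IMQ minus Sham were 7 with Leiden clusters, 9 without endothelial UMIs and 9 to 13 with 1 library left out, other Sox genes 1 and 1 to 3 with Leiden clusters and with 1 library left out, and SoxF partners 0 to 5 in blood and 0 to 2 in lymphatic endothelium.

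The labels give replicates 1 and 2 in each group, but same-numbered libraries did not deviate together: the correlation of their deviations ran from -0.168 to 0.215 over classes and pairs of groups, so the numbers were not taken as pairing. A fit with the replicate block called 4 genes in IMQ+SHP099 minus IMQ in the papilla gate, 0, 0 and 1 in blood endothelium, 232, 12 and 168 in lymphatic endothelium and 2961, 12 and 3156 in keratinocytes, where Sox7 in IMQ minus Sham was 0.90 and past the threshold.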
